A study of Rattus norvegicus with 15 samples.

Results

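The hexose transporters Slc5a1, Slc2a5, Slc2a2, Slc2a1, Slc2a4 and Slc2a3 were followed in the intestinal wall of diabetic rats after gastric bypass. All probes outside the controls that the array files name after 1 of these 6 genes were taken, which gave 8 probes of 41012, and the 6 genes are among 35194 gene names in the files. Slc2a2 and Slc2a4 had 2 probes each and the other genes 1. All 8 probes were well above background, as marked by the scanner software, on all 15 arrays, so that no member was lost to the filter on dim probes.

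The study asked how the Roux limb (RL), the piece of jejunum that Roux-en-Y gastric bypass (RYGB) joins to the stomach, changes when diabetes is relieved. GK-S-30 rats were male Goto-Kakizaki (GK) rats, a nonobese strain with inherited type 2 diabetes bred from Wistar rats, that had RYGB with an RL of 30 cm at the age of 16 wk. GK-Sham-PF rats were male GK rats of the same age whose intestine was opened 16 cm from the ligament of Treitz and rejoined without rearrangement, and which were pair-fed. Male Wistar rats, age-matched and without operation, stood for the nondiabetic state. At 14 wk postoperation, after an overnight fast, a piece of gut 5 cm long was cut out, in GK-S-30 rats 5 cm below the join of RL and stomach, and in the other groups from 21 to 26 cm beyond the ligament of Treitz. Each group had 5 rats with 1 array each, so that p-values measure the spread between rats. The RL piece differs from the sham piece in being joined to the stomach and in its contact with food and with bile and pancreatic juice, and these cannot be told apart in this design. Strain, operation and pair-feeding likewise cannot be told apart between GK-Sham-PF and Wistar rats.

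Hexose absorption needs a transporter on each face of the enterocyte. SGLT1, the product of Slc5a1, carries glucose and galactose across the brush border together with sodium, and GLUT5, the product of Slc2a5, carries fructose across the same membrane by facilitated diffusion. GLUT2, the product of Slc2a2, lets all of these sugars leave through the basolateral membrane toward the blood. GLUT1 (Slc2a1) is the widely expressed glucose carrier that supplies cells with glucose for their own use, GLUT4 (Slc2a4) is the carrier that insulin brings to the surface of muscle and fat cells, and GLUT3 (Slc2a3) is a carrier with high affinity for glucose known best from neurons.

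The letters that each measurement rests on are the 60-base probes, whose positions in the array annotation refer to rat genome build rn4. The probes of the 3 genes that differed between groups are shown, because the paired probes of Slc2a2 and of Slc2a4 read different stretches of their transcripts and gave different calls. Those marked as opening bases show the first 30 of 60. The capitals mark an ATG triplet in the upstream probe of Slc2a4. All run 5′ to 3′ as the array files list them.
Slc2a1 A_42_P684538 (opening bases): tctcctgtgcactgagggccagacaaacac
Slc2a2 A_44_P488355: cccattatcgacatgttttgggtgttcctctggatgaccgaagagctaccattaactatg
Slc2a2 A_44_P226612 (opening bases): ggagagctttcaacatatcactgctcttaa
Slc2a4 A_44_P311360: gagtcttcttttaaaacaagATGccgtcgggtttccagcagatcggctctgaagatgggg
Slc2a4 A_44_P477406 (opening bases): taccaacactttcttgttcccctccaggaa
The Slc2a1 probe lies at chr5:139718779-139718838 on the plus strand. Of the Slc2a2 probes on the plus strand, A_44_P488355 lies at chr2:116046109-116046168 and has 2 reading frames without a stop triplet, whereas A_44_P226612 lies downstream at chr2:116065264-116065323 and has 0. Of the Slc2a4 probes on the minus strand, A_44_P477406 lies at chr10:56786861-56786920, and A_44_P311360, upstream at chr10:56790782-56792089, spans 1308 bases of the genome with its 60 bases and so crosses at least 1 intron. The probes of Slc5a1, Slc2a5 and Slc2a3 lie at chr14:83310702-83310761 (minus strand), chr5:167285699-167285758 (plus strand) and chr4:159214918-159214977 (minus strand). Whether a probe lies in coding sequence or in a UTR was not looked up, since no annotation of rn4 was used here.

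The arrays were alike in detection and in correlation with each other, but not all in brightness. On single arrays 66.7% to 74.7% of the probes stood well above background, and arrays of 1 group correlated with each other at 0.975 to 0.993 (Pearson's r over probes). The dimmest arrays were Wistar replicate 3 and GK-Sham-PF replicate 5, with a 75th percentile of the processed signal of 207 and 208 against 302 to 357 on the other 13 arrays. Arrays were printed 4 to a slide. Slide A held Wistar replicates 2 to 5, slide B Wistar replicate 1 and GK-Sham-PF replicates 1 to 3, slide C GK-Sham-PF replicates 4 and 5 with GK-S-30 replicates 1 and 2, and slide D GK-S-30 replicates 3 to 5, so that groups and slides overlap only in part and each call is also given with slide as a block. All 8 epithelial markers searched for, among them villin (Vil1), Epcam and Fabp2, were well above background on every array, which fits the label of intestinal tissue. Levels below are log2 intensities after quantile normalization, on which a difference of 1 is a 2-fold difference, and they compare 1 probe between arrays, not different probes with each other.

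Against GK-Sham-PF rats, the RL of GK-S-30 rats had more Slc2a1 RNA, by 2.34-fold. On 1 of 2 probes each, Slc2a4 read 1.57-fold higher and Slc2a2 1.59-fold lower. Unlike that of Slc2a1, these calls were lost with slide as a fixed block and without some single arrays. The block leaves only slide C to compare these groups, and 382 of all probes passed with it, against 1869 without it. With it the log2 difference of Slc2a2 was larger but less precise (-0.85, SE 0.30, against -0.67, SE 0.18). That of Slc2a4 was smaller (0.38 against 0.65). Slc5a1 and Slc2a5, the brush border carriers of glucose and fructose, did not pass the test and had mean differences close to 0. In all, 3 of 8 probes passed the threshold of an adjusted p of 0.05 in limma (2 higher and 1 lower), where 6.70% of the 27891 probes tested passed in either direction, 3.90% higher and 2.80% lower. The median difference was -0.07 over the brightest probes of the 6 genes and -0.03 over all probes tested.

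**Figure D1:**
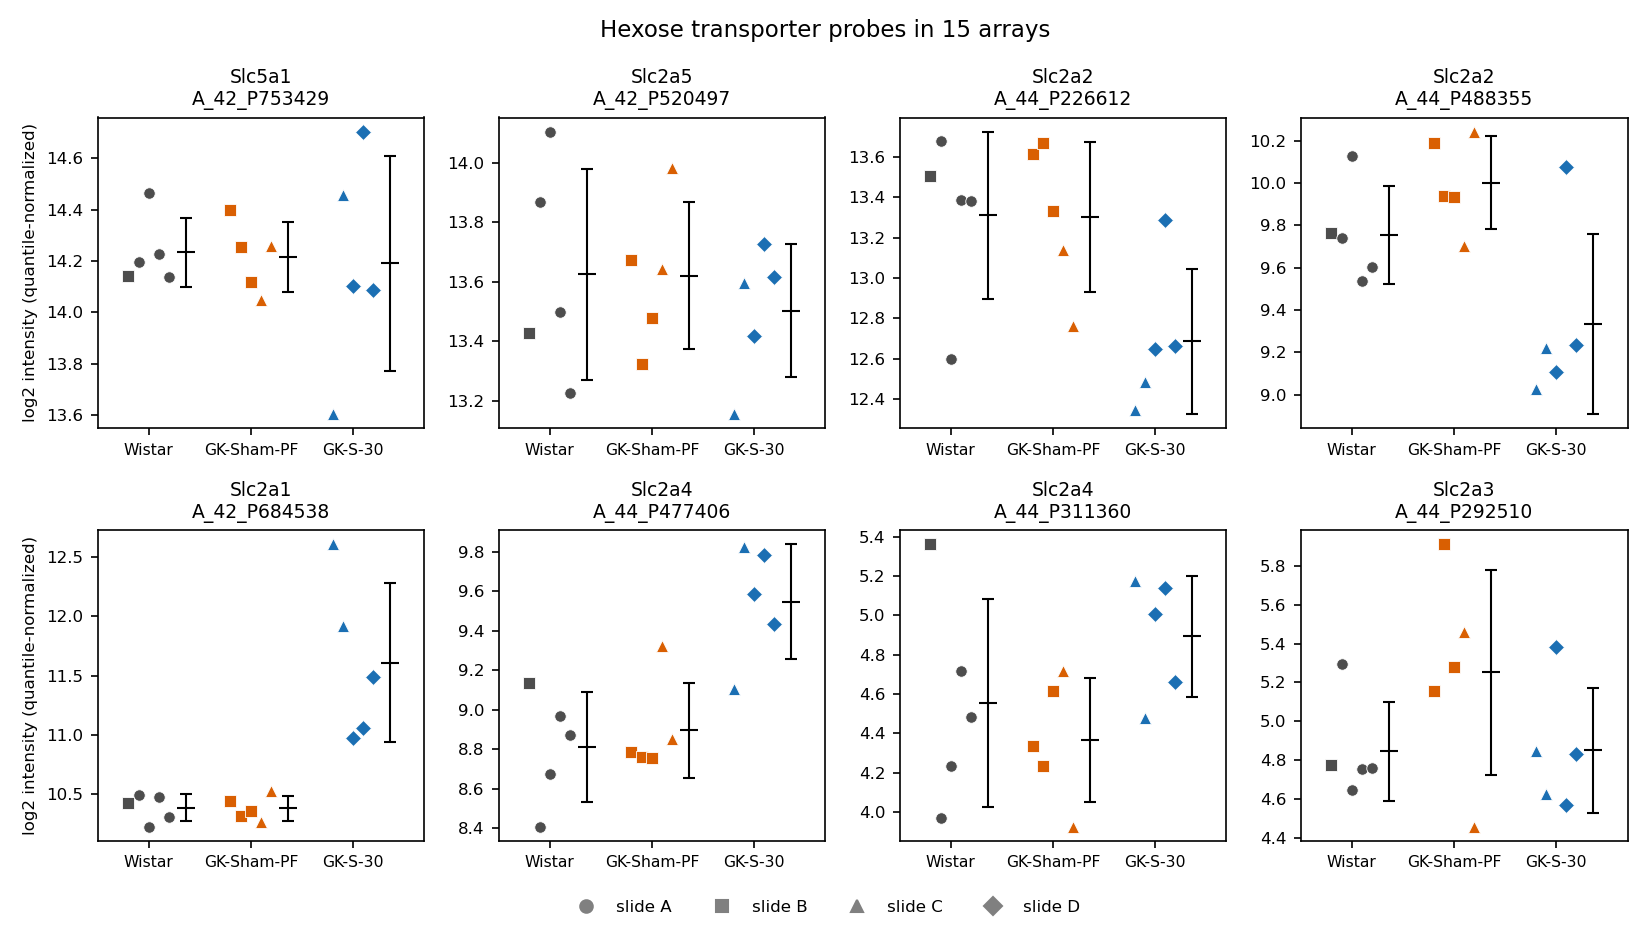
Log2 intensity (quantile-normalized) of each of the 8 probes on the 15 arrays, by group, with the slide as the symbol and the mean ± SD of each group in black (n = 5). All 5 GK-S-30 arrays lie above every other array for Slc2a1, whereas the groups overlap for the other probes.

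Slc5a1 reached 14.14, 14.20, 14.46, 14.23 and 14.14 in Wistar replicates 1 to 5. It reached 14.40, 14.26, 14.12, 14.05 and 14.26 in GK-Sham-PF replicates 1 to 5, and 13.60, 14.46, 14.10, 14.70 and 14.09 in GK-S-30 replicates 1 to 5. The GK-S-30 arrays held both the lowest and the highest value of all 15 and overlapped both other groups. GK-S-30 minus GK-Sham-PF was -0.03 (95% CI -0.37 to 0.32, adjusted p = 0.956 in limma), and as a ratio of the 2 groups the interval ran from 0.773 to 1.25. The sign of this small difference was not stable, since it was 0.05 after scaling to the 75th percentile. The SD of the GK-S-30 arrays was 0.42, against 0.14 in GK-Sham-PF and 0.13 in Wistar rats (n = 5 each).

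Slc2a5 ranged from 13.16 to 13.73 with a median of 13.60 in GK-S-30 rats. It ranged from 13.32 to 13.98 (median 13.64) in GK-Sham-PF rats and from 13.23 to 14.10 (median 13.50) in Wistar rats. The 3 groups overlapped over most of their range. The RL differed from the sham gut by -0.12 (95% CI -0.48 to 0.25, adjusted p = 0.774 in limma), and within slide C it was -0.44 (2 arrays against 2).

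Slc2a2, the gene of the basolateral exit carrier, was read by 2 probes that gave differences of like size. On the upstream probe, A_44_P488355, GK-S-30 replicates 1 to 5 had 9.03, 9.22, 9.11, 10.08 and 9.24, and GK-Sham-PF replicates 1 to 5 had 10.19, 9.94, 9.93, 9.70 and 10.24. Wistar replicates 1 to 5 had 9.76, 9.74, 10.13, 9.53 and 9.61. Of the GK-S-30 arrays, 4 lay below every array of both other groups, and replicate 4 lay among the GK-Sham-PF arrays. GK-S-30 minus GK-Sham-PF was -0.67 (SE 0.18, 95% CI -1.06 to -0.28, adjusted p = 0.0407 in limma). A fixed block for slide gave -0.85 (adjusted p = 0.200), the same as the value within slide C. With slide as a random block it was -0.66 (adjusted p = 0.0369). The correlation within slides that the random block estimated over all probes was -0.03. That fit thus makes almost no allowance for slide and is no second check on it.

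This call was close to the threshold. Without GK-S-30 replicate 4 the difference on A_44_P488355 was -0.85 (adjusted p = 0.00250), and the call also held without GK-Sham-PF replicate 4 (0.0404), Wistar replicate 3 (0.0303) or Wistar replicate 4 (0.0495). Leaving out any 1 of the other 11 arrays gave an adjusted p of 0.0522 to 0.0979 with a difference of -0.69 to -0.59. Without the filter on dim probes, which raised the number of probes tested to 41012, the adjusted p was 0.0679.

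On the downstream probe, A_44_P226612, which gave the brighter signal, GK-S-30 replicates 1 to 5 had 12.35, 12.49, 12.65, 13.29 and 12.66. GK-Sham-PF replicates 1 to 5 had 13.61, 13.67, 13.33, 13.14 and 12.76, and Wistar replicates 1 to 5 had 13.50, 13.68, 12.60, 13.39 and 13.38. Again 4 GK-S-30 arrays lay below all GK-Sham-PF arrays and replicate 4 was the exception. The lowest arrays of the other groups were the dimmer ones, Wistar replicate 3 and GK-Sham-PF replicate 5. GK-S-30 minus GK-Sham-PF was -0.62 (SE 0.22, 95% CI -1.09 to -0.14), which did not pass (adjusted p = 0.121 in limma; -0.53, adjusted p = 0.441, with slide as a fixed block). Without GK-S-30 replicate 4 it was -0.77 (adjusted p = 0.0494), and without both dimmer arrays it was -0.75 (adjusted p = 0.0184). In that last setting the upstream probe had -0.61 (adjusted p = 0.0569) and did not pass, the reverse of the calls with all 15 arrays. Without GK-S-30 replicate 4 both probes passed. Within groups the 2 Slc2a2 probes were only weakly related across arrays (r = 0.17 with group means removed, 0.52 over all 15 arrays). The dimmer arrays, lowest of their groups on A_44_P226612, were the highest of their groups on A_44_P488355. There Wistar replicate 3 had 10.13 and GK-Sham-PF replicate 5 had 10.24. These arrays thus lower the correlation, and its value without them was not computed.

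Slc2a1, the gene of the general glucose carrier, had the largest difference of the 6 genes. Its probe is printed in 10 spots per array, whose CV within an array was 3.24% to 5.68% (median 4.67%). GK-S-30 replicates 1 to 5 had 12.61, 11.92, 10.98, 11.06 and 11.49. GK-Sham-PF replicates 1 to 5 had 10.45, 10.32, 10.36, 10.26 and 10.53, and Wistar replicates 1 to 5 had 10.43, 10.50, 10.23, 10.48 and 10.31. All 5 GK-S-30 arrays lay above all 10 others, a separation upward from GK-Sham-PF that 4.23% of all probes tested also showed. The RL exceeded GK-Sham-PF rats by 1.23 (SE 0.23, 95% CI 0.73 to 1.72, adjusted p = 0.00576 in limma). The spread was wider in the RL (SD 0.67) than in Wistar (0.11) or GK-Sham-PF rats (0.10), n = 5 each, and the spots of 1 array differed by far less (SD of at most 0.08).

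Within the RL, Slc2a1 was higher on the GK-S-30 arrays of slide C than on those of slide D. The 2 GK-S-30 arrays on slide C had 11.92 and 12.61, and the 3 on slide D had 10.98 to 11.49. For GK-Sham-PF the mean was 10.40 on slide C (2 arrays) and 10.38 on slide B (3 arrays). Slide and rat cannot be told apart as the source of this spread. Within slide C, where GK-Sham-PF arrays were printed too, the difference was 1.87, the value that a fixed block for slide gave too (SE 0.23, adjusted p = 0.00288). With slide as a random block, which makes almost no allowance for slide here, it was 1.20 (adjusted p = 0.00597). The call held when any single array was left out (difference 0.98 to 1.39, adjusted p at most 0.0162), and without both GK-S-30 arrays of slide C it was 0.79 (adjusted p = 0.00525).

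Slc2a4, the gene of the insulin-responsive carrier, was also read by 2 probes. A_44_P477406, printed in 10 spots per array with a CV of 1.59% to 3.58%, had 9.11, 9.82, 9.59, 9.78 and 9.44 in GK-S-30 replicates 1 to 5. It had 8.78, 8.76, 8.75, 9.32 and 8.85 in GK-Sham-PF replicates 1 to 5 and 9.14, 8.41, 8.67, 8.97 and 8.87 in Wistar replicates 1 to 5. GK-S-30 replicate 1 lay below GK-Sham-PF replicate 4 and Wistar replicate 1, and the other 4 GK-S-30 arrays lay above all arrays of both groups. GK-S-30 minus GK-Sham-PF was 0.65 (SE 0.17, 95% CI 0.30 to 1.01, adjusted p = 0.0289 in limma). With slide as a fixed block it was 0.38 (adjusted p = 0.501), the value within slide C. With slide as a random block, which makes almost no allowance for slide here, it was 0.66 (adjusted p = 0.0239).

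The Slc2a4 call, too, turned on single arrays. It was lost without any 1 of GK-Sham-PF replicates 1, 2, 3 and 5 or GK-S-30 replicates 2, 3 and 4 (adjusted p 0.0512 to 0.0698, difference 0.58 to 0.64), and it held without any 1 of the other 8. The upstream probe A_44_P311360 was dim, at 4.48 to 5.18 in GK-S-30, 3.93 to 4.72 in GK-Sham-PF and 3.97 to 5.36 in Wistar rats. The groups overlapped on it, and its difference of 0.53 (95% CI 0.03 to 1.02, adjusted p = 0.209 in limma) did not pass.

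Slc2a3 was dim in all groups. It ranged from 4.57 to 5.38 (median 4.83) in GK-S-30, from 4.46 to 5.91 (median 5.28) in GK-Sham-PF and from 4.65 to 5.29 (median 4.76) in Wistar rats, and the groups overlapped. The difference from GK-Sham-PF rats was -0.40 (95% CI -0.88 to 0.08, adjusted p = 0.346 in limma).

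**Figure D2:**
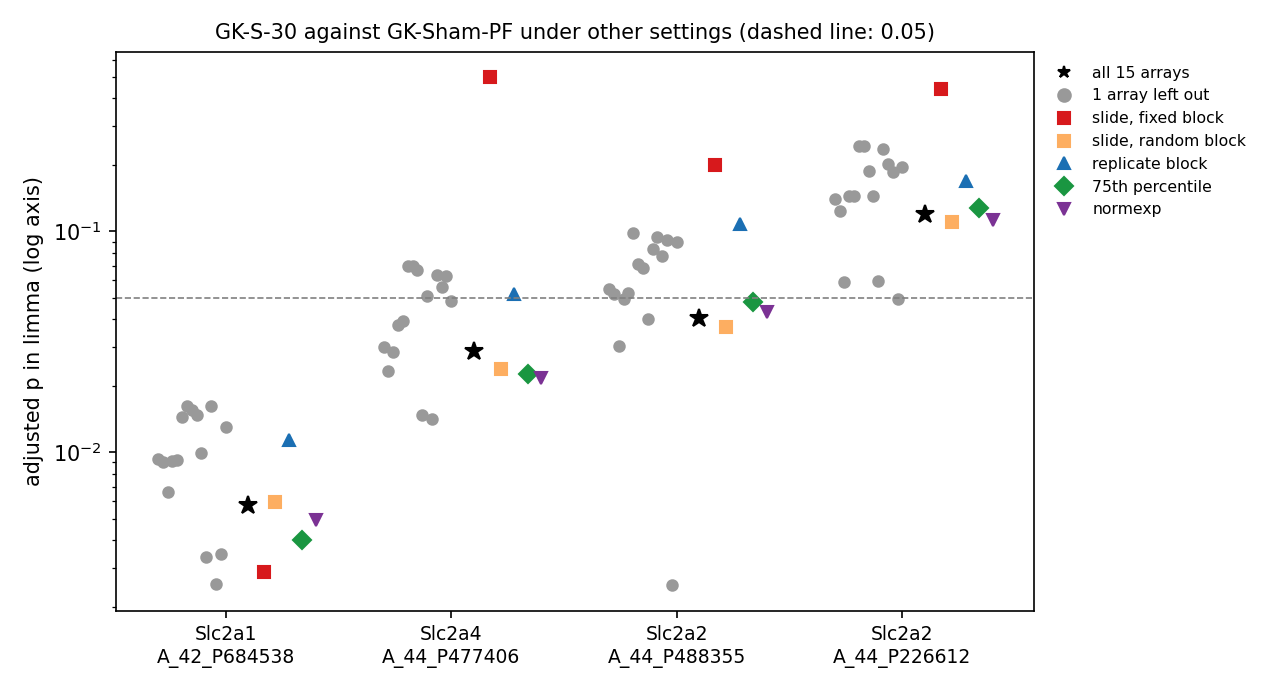
Adjusted p in limma (log axis) of GK-S-30 against GK-Sham-PF for Slc2a1, Slc2a4 and both Slc2a2 probes, with all 15 arrays, with 1 array left out in turn, and with other blocks, scaling or background correction. The Slc2a1 points stay under the dashed line at 0.05, and those of Slc2a4 and Slc2a2 lie on both sides of it.

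Between sham-operated GK rats and Wistar rats, which share the GK-Sham-PF arrays with the comparison above, 0 of 8 probes passed in limma, against 7.83% of all probes tested. No probe had an unadjusted p under 0.05 either (0 of 8, against 18.9% of all probes), and the methods' Tukey comparison called 0 of 8 (13.5% of all probes). The differences of Slc5a1 (-0.02, 95% CI -0.36 to 0.33), Slc2a5 (-0.0049, -0.37 to 0.36), Slc2a1 (-0.01, -0.50 to 0.49) and the brighter probes of Slc2a2 (-0.01, -0.48 to 0.47) and Slc2a4 (0.08, -0.27 to 0.44) all had intervals on both sides of 0. Slc2a3 had the largest difference, 0.41 (95% CI -0.08 to 0.89, adjusted p = 0.370). Within slide B, where 3 GK-Sham-PF arrays met 1 Wistar array, the differences ran from -0.97 (A_44_P311360 of Slc2a4) to 0.67 (Slc2a3).

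Against Wistar rats, a comparison that shares its GK-S-30 arrays with the first, Slc2a1 and 1 of 2 Slc2a4 probes passed again. Slc2a1 was higher by 1.22 (SE 0.23, 95% CI 0.73 to 1.72, adjusted p = 0.00152 in limma) with no overlap, as for 8.72% of all probes, and with slide as a fixed block by 1.81 (adjusted p = 0.0224). Slc2a4 was higher by 0.74 on A_44_P477406 (SE 0.17, 95% CI 0.38 to 1.09, adjusted p = 0.00505), but with slide as a fixed block by 0.01 (adjusted p = 0.995). No slide held both groups, so that this blocked value rests on the chain of slides through GK-Sham-PF. Here 2 of 8 probes passed, both higher, where 22.8% of all probes passed in either direction and 10.9% higher. The Slc2a2 probes had -0.62 on A_44_P226612 (95% CI -1.10 to -0.15, adjusted p = 0.0577) and -0.42 on A_44_P488355 (95% CI -0.81 to -0.03, adjusted p = 0.116).

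The Slc2a2 differences from Wistar rats turned on single arrays. Without Wistar replicate 3 the difference on A_44_P226612 was -0.80 (adjusted p = 0.0108), without GK-S-30 replicate 4 it was -0.77 (0.0201) and without GK-Sham-PF replicate 5 it was -0.62 (0.0410). On A_44_P488355 it was -0.61 (adjusted p = 0.00622) without GK-S-30 replicate 4. Slc5a1 (-0.04, 95% CI -0.39 to 0.30), Slc2a5 (-0.12, -0.48 to 0.24), Slc2a3 (0.01, -0.48 to 0.49) and A_44_P311360 of Slc2a4 (0.34, -0.16 to 0.84) did not pass. In the order of group means, GK-S-30 stood above both other groups for Slc2a1 and both Slc2a4 probes, of which A_44_P311360 passed in neither comparison. It stood below both for both Slc2a2 probes, Slc5a1 and Slc2a5. Of these only A_44_P488355 of Slc2a2 passed, against GK-Sham-PF alone. GK-Sham-PF and Wistar did not differ beyond their spread for any of the 8 probes.

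**Figure D3:**
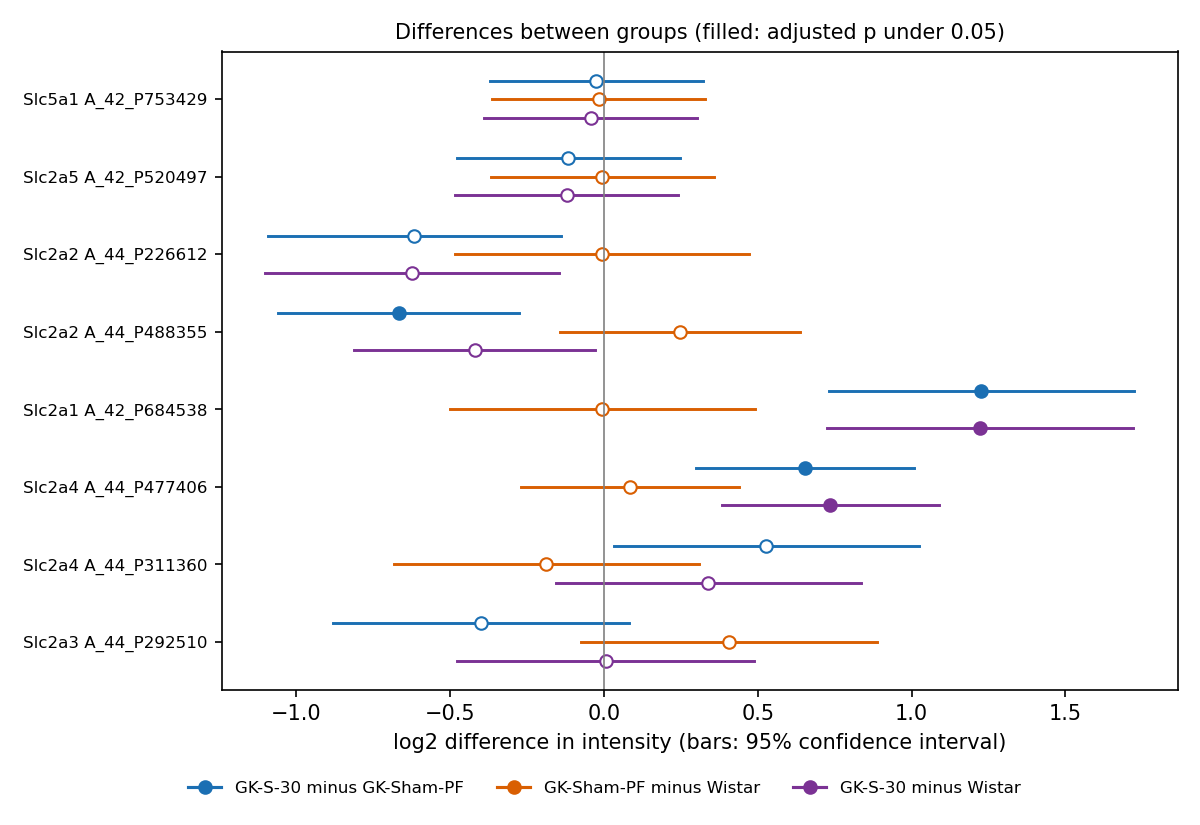
Log2 differences of the 8 probes in the 3 comparisons with 95% confidence intervals, filled where the adjusted p was under 0.05. Slc2a1 and A_44_P477406 of Slc2a4 are filled to the right of 0 in both comparisons of GK-S-30, A_44_P488355 of Slc2a2 is filled to the left of 0 against GK-Sham-PF, and no GK-Sham-PF minus Wistar point is filled.

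Ratios within an array cancel what all probes of an array share. The balance of Slc5a1 to Slc2a2 (brightest probes) was 0.59 higher in the RL than in GK-Sham-PF rats on the log2 scale, with an exact two-sided permutation p of 0.0397, which was 0.25 after Benjamini-Hochberg adjustment over the 9 ratio comparisons made (3 ratios in 3 pairs of groups). Against Wistar rats it was 0.58 higher (exact permutation p = 0.0556, adjusted p = 0.25). Neither passed, and with 5 arrays against 5 the smallest p such a test can give is 0.00794. The balance of Slc5a1 to Slc2a5, the glucose and the fructose carrier of the brush border, differed by 0.09 (exact permutation p = 0.563), and that of Slc2a2 to Slc2a5 by -0.50 (exact permutation p = 0.127).

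The share of epithelium in the tissue was followed with the mean of the 8 epithelial markers. This mean was 14.64 ± 0.06 in GK-S-30, 14.58 ± 0.17 in GK-Sham-PF and 14.63 ± 0.16 in Wistar rats (SD, n = 5 each), and 0 of the 8 markers passed for GK-S-30 minus GK-Sham-PF in limma, in either direction. Relative to it, Slc2a1 was 1.17 higher in the RL than in GK-Sham-PF rats, with no overlap of the arrays (exact permutation p = 0.00794, the smallest possible, adjusted p = 0.0476 over 18 such comparisons). The difference was 0.93 to 1.33 when any 1 array was left out. The adjusted p was 0.0571 after scaling to the 75th percentile and 0.0714 to 0.107 without any 1 of the 10 Wistar and GK-Sham-PF arrays, which says little about stability, since 0.0476 already rests on the smallest p the design allows. Slc2a2 (A_44_P226612) was 0.67 lower relative to the markers (log2 difference -0.67, exact permutation p = 0.0159, adjusted p = 0.0571), and 4 of its 5 GK-S-30 values lay below all GK-Sham-PF values. For Slc2a4 the relative difference was 0.60 (exact permutation p = 0.0238, adjusted p = 0.0714), for Slc5a1 -0.08 (exact permutation p = 0.722) and for Slc2a5 -0.17 (exact permutation p = 0.429). In whole tissue, fewer cells of a type and less RNA per cell cannot be told apart.

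Smooth muscle markers moved together with the groups. Of 6 such markers, 5 were analysed (Myh11, Tagln, Des, Cnn1 and Actg2), all well above background on every array, and their mean ran from 13.30 to 13.68 in GK-S-30, from 11.13 to 12.56 in GK-Sham-PF and from 11.50 to 12.37 in Wistar rats. Of the 5, 4 passed as higher in the RL than in GK-Sham-PF rats in limma (median of the list 1.99), among them Actg2 with 2.35 (SE 0.25) and Des with 1.99 (SE 0.20). Slc2a4, which muscle cells use, correlated with this mean across the 15 arrays (Pearson's r = 0.88, Spearman's rho = 0.88), and with group means removed r was 0.64 on A_44_P477406 and 0.65 on A_44_P311360. GK-Sham-PF replicate 4, the highest array of its group for Slc2a4, was also the highest for the markers, at 12.56. The points of such a correlation share their RNA sample, array and scaling, and the part of smooth muscle RNA in the Slc2a4 difference was not tested. For Slc2a1 the same correlation was 0.74 over all arrays and -0.22 with group means removed.

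**Figure D4:**
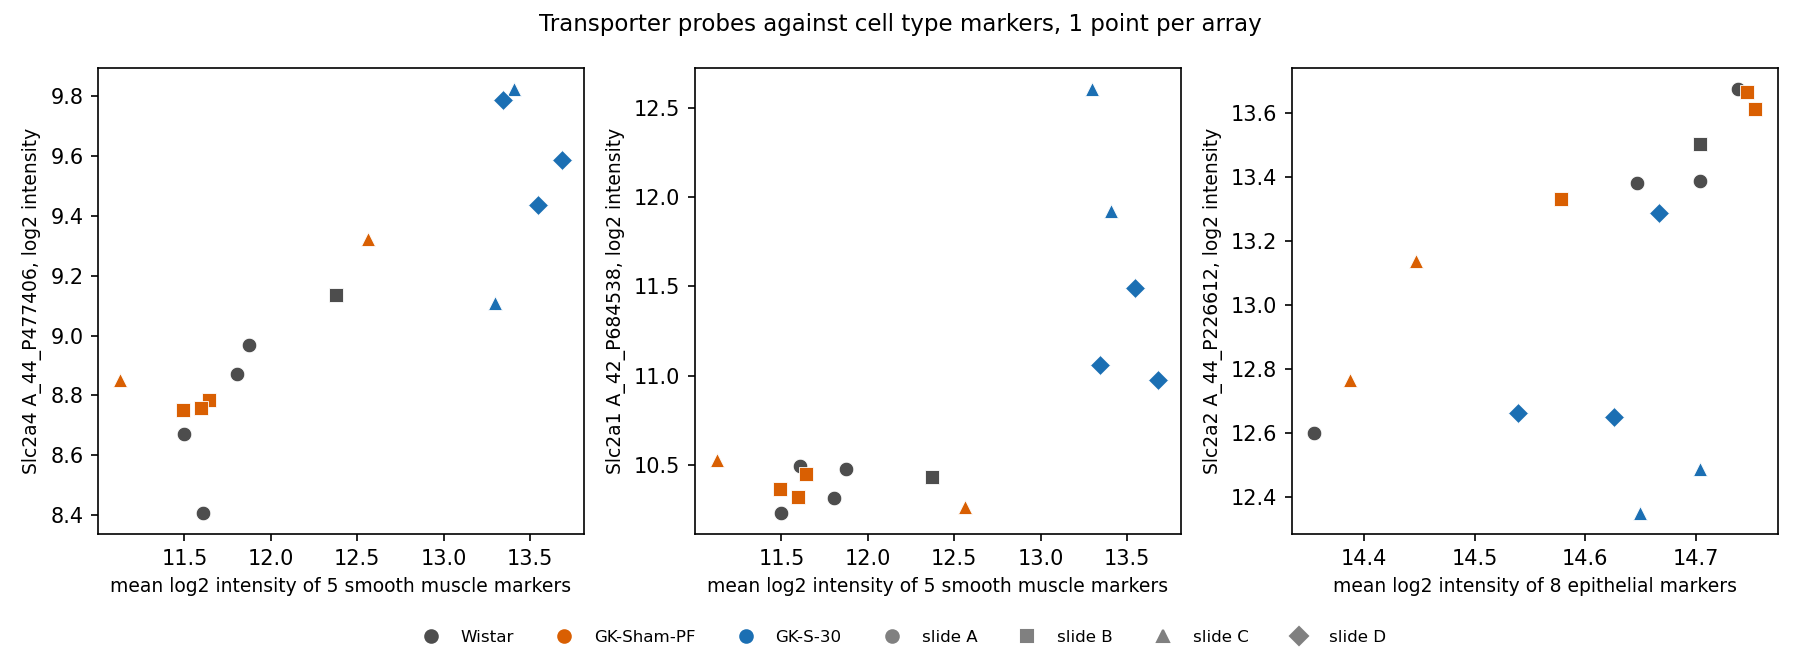
Log2 intensity of Slc2a4 and Slc2a1 against the mean of 5 smooth muscle markers, and of Slc2a2 against the mean of 8 epithelial markers, 1 point per array, coloured by group with the slide as the symbol. Slc2a4 climbs with the muscle markers from 8.41 to 9.82, Slc2a1 spreads from 10.98 to 12.61 among GK-S-30 arrays whose muscle markers differ little, and 4 of the 5 Slc2a2 points of GK-S-30 lie below most others at a like epithelial mean.

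Markers of other cells gave fewer calls in limma for GK-S-30 minus GK-Sham-PF. Of the adipocyte markers, 3 of 5 were tested and 0 passed, and leptin (Lep) was above background on 0 arrays. None of the 5 striated muscle markers passed (0 of 5, median 0.0028), although their mean, at 6.74 to 7.03 in GK-S-30, lay above the 6.55 to 6.70 of GK-Sham-PF and the 6.39 to 6.67 of Wistar rats. It correlated with Slc2a1 at r = 0.72 over all arrays and 0.15 with group means removed. Of 5 neuron markers 1 was lower, the peripherin gene Prph (-0.61, SE 0.15), and their mean followed Slc2a4 (A_44_P477406) within groups (r = 0.77, 0.32 over all arrays). The blood (2 tested), endothelial (3), proliferation (3), leukocyte (5) and pancreas markers (4) had 0 calls each. The mean of the blood markers followed Slc2a4 (A_44_P477406) at r = 0.62 over all arrays and 0.65 with group means removed, and that of the proliferation markers followed Slc2a1 at 0.71 and 0.48. The mean of the gastric markers ran from 4.74 to 5.96 in GK-S-30, from 4.42 to 5.05 in GK-Sham-PF and from 4.49 to 4.92 in Wistar rats. Of the 2 that could be tested 0 passed, and Gkn1, Gkn2 and Muc5ac were well above background on only 9, 2 and 10 arrays. This dim mean, which includes them, correlated with Slc2a1 (r = 0.88, 0.77 with group means removed). The part of these marker lists in the Slc2a1 and Slc2a4 differences was not tested. Slc2a2 on A_44_P226612 followed the epithelial mean within groups (r = 0.79 with group means removed, 0.52 over all arrays), whereas A_44_P488355 had -0.17 and -0.23. The dimmer arrays bear on this contrast. Their epithelial means were the lowest of their groups, 14.35 in Wistar replicate 3 and 14.39 in GK-Sham-PF replicate 5. They were also the lowest of their groups on A_44_P226612 and the highest on A_44_P488355. The correlations without them were not computed, so a link to epithelial content cannot be told from array brightness. A_44_P488355 followed the endothelial markers (r = 0.83 with group means removed, 0.76 over all arrays), whose part in its difference was not tested.

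Genes that work beside these carriers were described through 7 lists, chosen with earlier results of these data known. Of their 56 tested genes 12 passed for GK-S-30 minus GK-Sham-PF (21.4%, against 6.70% of all probes). Each gene stands by its brightest probe, and in a fit of 1 such probe per named gene 1224 of 12336 passed. Among 11 tested genes for other sugar transporters, 2 were lower and 0 higher in the RL than in GK-Sham-PF rats (median -0.23). These were Slc5a2, which encodes the kidney-type sodium glucose cotransporter SGLT2, at -0.76 (SE 0.20), and Slc5a4, of the SGLT3 group, at -0.87 (SE 0.22). Among 13 genes for handling fructose and other hexoses inside the cell, 6 fell and 1 rose (median -0.47). The falls were those of ketohexokinase (Khk, -0.95, SE 0.19) and triokinase (Tkfc, -0.92, SE 0.19), which phosphorylate fructose and its breakdown product glyceraldehyde, of Txnip (-0.62, SE 0.15), whose transcription follows glucose, and of 3 genes of glucose release, the glucose 6-phosphate carrier gene Slc37a4 (-0.70, SE 0.15), the glucose 6-phosphatase gene G6pc1 (-3.48, SE 0.75) and the fructose bisphosphatase gene Fbp1 (-0.66, SE 0.08). Hexokinase 1 (Hk1), which traps glucose in the cell, rose by 0.85 (SE 0.14).

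The sodium gradient and SGLT1 regulation list had 1 of 7 tested genes higher and 0 lower, the taste-cell channel gene Trpm5 at 1.64 (SE 0.43), while the sodium pump subunit gene Atp1b1 (-0.10) did not pass. Of 8 hypoxia response genes, a list chosen because GLUT1 is known as a hypoxia target, 2 were higher and 0 lower (median 0.23), namely Egln3, a prolyl hydroxylase gene, at 1.50 (SE 0.16) and Bnip3 at 0.71 (SE 0.17), while Pgk1 (0.79, adjusted p = 0.0503 in limma), Vegfa (-0.11) and Ldha (0.02) did not pass. None of the 9 tested genes for GLUT4 traffic passed (0 of 9, median 0.02), nor the 6 transcription factors named for sugar transporter genes (0 of 6, median 0.14), nor lactase (Lct) and trehalase (Treh), the brush border carbohydrases analysed (0 of 2, median -0.40). The median over all probes tested was -0.03.

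In the comparison of GK-Sham-PF with Wistar rats, 6 of the 56 tested genes of the same lists passed, where 7.83% of all probes did. With 1 probe per named gene 1073 of 12336 passed. Slc2a10 was higher in GK-Sham-PF rats by 2.17 (SE 0.42) and Slc50a1, a sugar efflux carrier gene, lower (-1.30, SE 0.15), so that 1 of 11 other sugar transporters rose and 1 fell. In the hexose handling list Txnip rose by 0.65 (SE 0.15) and the glucokinase regulator Gckr fell by 1.96 (SE 0.21). Rab10, a GTPase of GLUT4 vesicles, fell by 0.95 (SE 0.09), 1 of 9 in its list, and Egln3 fell by 0.56 (SE 0.16), 1 of 8 in its list. In GK-S-30 against Wistar rats 20 of the 56 passed (35.7%), where 22.8% of all probes passed, 11.8% lower and 10.9% higher. With 1 probe per named gene 3245 of 12336 passed there. Of the 13 genes of the hexose handling list 7 were lower and 2 higher (median -0.77), and of the 11 other sugar transporters 5 were lower and 1 higher (median -0.22).

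Genes whose levels closely followed each transporter over the 15 arrays were sought among 12318 genes by Pearson's r, as a description. Slc2a2 (A_44_P226612) ran with Tkfc (r = 0.93, 0.94 with group means removed) and Prkag2 (0.92). Slc2a1 ran with Noxa1 (0.96), thioredoxin (Txn1, 0.95) and transketolase (Tkt, 0.94), which keep r of 0.80 to 0.88 with group means removed. Slc2a4 ran with Ppm1d (0.94) and the muscle actinin gene Actn2 (0.93). Among the closest to Slc5a1 were Pacsin2 (0.83) and Lyn (0.81), to Slc2a5 Marchf6 (0.85), Epm2aip1 (0.84) and Cnn3 (0.84), and to Slc2a3 Zbtb2 (0.89), Ddx50 (0.87) and Hr (0.84). Among the transporters themselves, with group means removed, the highest correlation was that of Slc5a1 with A_44_P488355 of Slc2a2 (r = 0.78), followed by A_44_P488355 with Slc2a5 (0.63) and by Slc5a1 with Slc2a5 (0.59), while Slc5a1 and Slc2a1 ran in opposite directions (-0.56).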

How the data were processed

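Intestinal RNA of 15 rats, 5 each of the GK-S-30, GK-Sham-PF and Wistar groups, was measured on 1-colour Agilent whole rat arrays, 1 array per rat. Per the labels and methods, total RNA was checked for integrity, amplified, labelled with 1 dye and read with Feature Extraction 10.7 (10.7.3.1 by the file headers), and GeneSpring then normalized the values by quantiles. The authors deposited 1 file per array with spot intensity, of which the processed signal has a fitted spatial background subtracted and is not normalized between arrays. The series matrix, whose log2 values the authors deposited after quantile normalization, was used as an alternative.

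Spots of a probe were averaged after control and outlier spots were left out (45018 spots, 43379 outside the controls, 41012 probes, 0 saturated), and log2 of the processed signal was brought to common quantiles (limma 3.58.1, R 4.3.3). Quantile normalization assumes that most probes keep their level. A probe was tested if 1 group or more had it well above background on all arrays (27891 probes), in 1 limma model over all arrays with Benjamini-Hochberg adjustment over all tested probes at 0.05. Single values were compared with exact two-sided permutation tests. The number of arrays limits the precision: the median SE of a log2 difference was 0.16. Gene symbols came from a RefSeq table, where 19826 of the 41012 probes found no match, and a gene on a list is represented by its brightest tested probe. The members and lists were chosen with earlier results of these data known. Named are all member probes, genes of the lists past the threshold or needed to describe a list, marker genes, and the 3 genes nearest to each member, some of which are not reported here. The procedure was tested on simulated data.

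Alternatives were scaling to the 75th percentile, normexp background correction (offset 50), the series matrix, slide as a fixed or random block, the replicate number as a block, no filter, 1 probe per gene, the methods' Tukey comparison with and without adjustment, leaving out single arrays or both dimmer arrays, and, chosen after seeing the data, leaving out both GK-S-30 arrays of slide C. Same-numbered rats were not paired: the correlation of their deviations from the group means was -0.28 to 0.19 over 15 pairs of arrays, above 0.1 in 2.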

Additional observations from a re-analysis of the deposited data

Results flagged for a closer look

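In 10 of the 51 sets of 5 arrays searched, 1 array stood apart from the other 4, with a gap to its nearest neighbour of more than 0.71 of the range of the group. Chance alone marks about 1 in 20 sets, and the sets here share probes and arrays.

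Wistar replicate 3, one of the dimmer arrays, accounts for 5 of them. It had the highest Slc5a1 level of its group (14.46, nearest 14.23) and the lowest Slc2a2 level on A_44_P226612 (12.60, nearest 13.38). Accordingly it stood apart in the log2 ratio of Slc5a1 to Slc2a2 (1.86, nearest 0.84), in that of Slc2a2 to Slc2a5 (-1.50, nearest -0.19) and in Slc5a1 relative to the epithelial markers (0.11, nearest -0.48).

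GK-S-30 replicate 4 had 10.08 on A_44_P488355 of Slc2a2, where the nearest array of its group had 9.24. GK-Sham-PF replicate 4 had 9.32 on A_44_P477406 of Slc2a4 (nearest 8.85), and it was also the highest of its group for the smooth muscle markers. Wistar replicate 2 stood apart for Slc2a3 (5.29, nearest 4.78) and for Slc2a4 relative to the epithelial markers (-6.33, nearest -5.78). GK-S-30 replicate 2 had the highest log2 ratio of Slc5a1 to Slc2a2 in its group (1.97, nearest 1.45).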

How the results depend on the processing

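Slc2a1 was higher in GK-S-30 than in both other groups and past the threshold under every alternative tried that has a test on its probe. The calls of Slc2a4 and of A_44_P488355 of Slc2a2 depended on several choices, and the causes were not tested. Over all results and alternatives 95 values changed sign, the largest of them 0.46 in size and 0 past the threshold. The number of arrays limits what can be seen. The series matrix values changed no call of a member probe.

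With slide as a fixed block, 382 probes passed for GK-S-30 minus GK-Sham-PF, 416 for GK-Sham-PF minus Wistar and 454 for GK-S-30 minus Wistar, with 1 transporter probe each in the comparisons of GK-S-30. Slc2a4 A_44_P477406 then had 0.38 and 0.0072 for the RL against GK-Sham-PF and Wistar rats and -0.37 for GK-Sham-PF minus Wistar, Slc2a4 A_44_P311360 had -0.46 for GK-S-30 minus Wistar, and Slc2a2 A_44_P488355 had -0.85 for GK-S-30 minus GK-Sham-PF. For GK-Sham-PF minus Wistar it gave 0.12 for Slc5a1, 0.062 for Slc2a5 and 0.033 for Slc2a2 A_44_P226612. With slide as a random block, the estimated correlation within slides was -0.03, so that this fit makes almost no allowance for slide. In it Slc2a2 A_44_P226612 passed for GK-S-30 minus Wistar (-0.63, adjusted p = 0.0477 in limma), Slc2a3 had -0.0048 there and Slc2a1 0.012 for GK-Sham-PF minus Wistar. Within slide C, GK-S-30 minus GK-Sham-PF was 1.87 for Slc2a1, -0.44 for Slc2a5 and 0.38 for Slc2a4 A_44_P477406, and within slide B, GK-Sham-PF minus Wistar was -0.97 for Slc2a4 A_44_P311360 and -0.37 for A_44_P477406.

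With the replicate number as a block, 1212 probes and 1 transporter probe passed for GK-S-30 minus GK-Sham-PF, where Slc2a2 A_44_P488355 had -0.67 (adjusted p = 0.109) and Slc2a4 A_44_P477406 had 0.65 (adjusted p = 0.0522). The block changed no other call of a transporter probe. Without the filter on dim probes Slc2a2 A_44_P488355 had -0.67 (adjusted p = 0.0679). With 1 probe per named gene 1224, 1073 and 3245 probes passed for GK-S-30 minus GK-Sham-PF, GK-Sham-PF minus Wistar and GK-S-30 minus Wistar. The methods' Tukey comparison called 3864 probes for GK-S-30 minus GK-Sham-PF and 3775 for GK-Sham-PF minus Wistar. After Benjamini-Hochberg adjustment it called 763, 1384 and 4168 in the same order of comparisons, and 1 transporter probe for GK-S-30 minus GK-Sham-PF, with Slc2a2 A_44_P488355 (-0.67) and Slc2a4 A_44_P477406 (0.65) no longer passing.

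Scaling to the 75th percentile gave Slc5a1 0.055 and 0.048 against GK-Sham-PF and Wistar, Slc2a3 -0.11 for GK-S-30 minus Wistar, and for GK-Sham-PF minus Wistar 0.00018 for Slc2a1 and 0.0033 for the ratio of Slc2a2 to Slc2a5. Relative to the epithelial markers it left Slc2a1 at 1.17 and 1.22 against GK-Sham-PF and Wistar and Slc2a4 at 0.68 against Wistar, each with an adjusted p of 0.0571 from exact permutation tests. The normexp correction turned the sign of GK-Sham-PF minus Wistar for Slc5a1 (0.0099), Slc2a5 (0.00081), Slc2a2 A_44_P226612 (0.021), Slc5a1 over Slc2a5 (0.0091) and Slc2a2 over Slc2a5 (0.020), and of GK-S-30 minus Wistar for Slc2a3 relative to the epithelial markers (0.023). With only Vil1, Fabp2 and Alpi as the epithelial reference, GK-S-30 minus GK-Sham-PF was 0.10 for Slc5a1 and 0.0093 for Slc2a5, and GK-S-30 minus Wistar was 0.15 for Slc5a1, 0.075 for Slc2a5 and 0.20 for Slc2a3.

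Without both dimmer arrays Slc2a2 A_44_P226612 passed at -0.75 and -0.80 against GK-Sham-PF and Wistar and A_44_P488355 did not (-0.61 against GK-Sham-PF), and 2650 probes passed for GK-S-30 minus GK-Sham-PF. Slc5a1 then had 0.029 for GK-Sham-PF minus Wistar and 0.015 for GK-S-30 minus Wistar, Slc2a5 had 0.024 and Slc2a1 -0.080 for GK-Sham-PF minus Wistar and Slc2a3 had -0.044 for GK-S-30 minus Wistar. Without both GK-S-30 arrays of slide C, a setting chosen after seeing the data, 1133 probes passed for GK-S-30 minus GK-Sham-PF, Slc2a2 A_44_P488355 had -0.53 there (adjusted p = 0.202), and Slc5a1 had 0.082 and 0.063 against GK-Sham-PF and Wistar.

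Leaving out 1 array in turn gave 1198 to 2370 probes past the threshold for GK-S-30 minus GK-Sham-PF, with the lowest counts without GK-Sham-PF replicate 1 (1198) or 2 (1241). Of the transporter probes, 1 to 3 passed there and 2 to 4 for GK-S-30 minus Wistar, the 4 without GK-S-30 replicate 4. The log2 differences of GK-S-30 minus GK-Sham-PF lay in these ranges, namely Slc5a1 A_42_P753429 -0.15 to 0.12, Slc2a2 A_44_P226612 -0.77 to -0.53, Slc2a2 A_44_P488355 -0.85 to -0.59 and Slc2a4 A_44_P477406 0.58 to 0.76. The differences relative to the epithelial markers of GK-S-30 minus GK-Sham-PF lay in these ranges, namely Slc5a1 -0.20 to 0.071, Slc2a2 -0.81 to -0.58 and Slc2a1 0.93 to 1.33. The log2 differences of GK-Sham-PF minus Wistar lay in these ranges, namely Slc5a1 A_42_P753429 -0.063 to 0.040, Slc2a5 A_42_P520497 -0.10 to 0.11, Slc2a2 A_44_P226612 -0.18 to 0.13, Slc2a1 A_42_P684538 -0.045 to 0.025, Slc2a4 A_44_P477406 -0.023 to 0.17 and Slc2a4 A_44_P311360 -0.33 to 0.014. The differences relative to the epithelial markers of GK-Sham-PF minus Wistar lay in these ranges, namely Slc5a1 -0.031 to 0.15, Slc2a5 -0.097 to 0.23, Slc2a2 -0.070 to 0.12, Slc2a1 -0.042 to 0.10 and Slc2a4 -0.0099 to 0.21. The ratio differences of GK-Sham-PF minus Wistar lay in these ranges, namely Slc5a1 over Slc2a2 -0.16 to 0.22, Slc5a1 over Slc2a5 -0.097 to 0.066 and Slc2a2 over Slc2a5 -0.30 to 0.22. The log2 differences of GK-S-30 minus Wistar lay in these ranges, namely Slc5a1 A_42_P753429 -0.17 to 0.10, Slc2a2 A_44_P226612 -0.80 to -0.53, Slc2a2 A_44_P488355 -0.61 to -0.33 and Slc2a3 A_44_P292510 -0.13 to 0.12. The differences relative to the epithelial markers of GK-S-30 minus Wistar lay in these ranges, namely Slc5a1 -0.17 to 0.10, Slc2a5 -0.23 to 0.058, Slc2a1 0.97 to 1.37, Slc2a4 0.60 to 0.84 and Slc2a3 -0.14 to 0.083.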
